A study of Homo sapiens and Mus musculus with 20 samples.

Results

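The 10 genes described here, HSPA5, HSP90B1, DNAJB9, HYOU1, SDF2L1, CRELD2, MANF, XBP1, HERPUD1 and PDIA4, belong to the response of cells to stress in the endoplasmic reticulum (ER). They were chosen by symbol, out of 17554 genes listed in at least 1 of the IMR90 experiments and 11994 listed in all 3. All 10 were listed and tested in each experiment, so none was lost to the filter on low values. RNA sequencing of IMR90, a human fetal lung fibroblast line, gave 12 libraries in 6 groups of 2, all labelled wild type. A485, an inhibitor of the acetyltransferase p300, was compared with Control2; MS-275, which blocks histone deacetylases of class I, with Control3; and pyruvate, the end product of glycolysis, with Control6. The controls are labelled as untreated. The study's account describes the cells given pyruvate as senescent, which the labels do not state, and the labels give neither dose nor time. IMR90 comes from 1 donor, and nothing in the labels says whether replicates are separate cultures, so p-values measure the spread between libraries, which may be technical.

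Proteins that enter the secretory pathway fold in the lumen of the ER. When unfolded proteins build up there, the sensors IRE1 (gene ERN1), PERK (gene EIF2AK3) and ATF6 start the unfolded protein response. IRE1 splices the XBP1 transcript so that it encodes an active transcription factor, ATF6 is cut to release another, and PERK slows translation while favouring that of ATF4. Together these raise the transcription of chaperones, folding enzymes and components of ER-associated degradation. Fibroblasts secrete large amounts of collagen and therefore depend on this machinery. The values here count reads per gene and do not tell spliced from unspliced XBP1.

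The transcription factors of this response bind short promoter elements, and the promoters that hold an exact copy are shown because the elements are what several of these genes share in sequence. The ER stress response element (ERSE) was searched as CCAAT and CCACG separated by 9 bases, ERSE-II as ATTGG and CCACG separated by 1 base, and the core of the unfolded protein response element (UPRE) as TGACGTGG, on both strands of RefSeq promoters (GRCh38.p14, from 250 bases before to 50 after each start). Capitals mark the whole element, spacer included, and each sequence runs 5′ to 3′ on the strand of its gene.
HSPA5, minus strand, chr9:125241371-125241429: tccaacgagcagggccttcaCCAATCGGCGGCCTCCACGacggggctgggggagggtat
HSP90B1, plus strand, chr12:103930196-103930359: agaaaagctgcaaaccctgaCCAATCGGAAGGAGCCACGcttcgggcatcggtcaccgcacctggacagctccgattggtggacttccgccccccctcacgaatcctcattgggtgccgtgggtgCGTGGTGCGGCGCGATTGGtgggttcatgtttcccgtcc
CRELD2, plus strand, chr22:49918534-49918592: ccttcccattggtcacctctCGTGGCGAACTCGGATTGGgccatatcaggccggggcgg
XBP1, minus strand, chr22:28800583-28800641: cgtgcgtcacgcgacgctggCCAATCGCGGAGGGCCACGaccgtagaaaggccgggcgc
HYOU1, minus strand, chr11:119057254-119057413: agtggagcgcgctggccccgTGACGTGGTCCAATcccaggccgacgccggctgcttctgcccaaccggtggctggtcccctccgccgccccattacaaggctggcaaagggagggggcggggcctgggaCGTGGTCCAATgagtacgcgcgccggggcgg
SDF2L1, plus strand, chr22:21642094-21642144: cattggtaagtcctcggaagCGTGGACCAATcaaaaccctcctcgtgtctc
HERPUD1, plus strand, chr16:56932005-56932055: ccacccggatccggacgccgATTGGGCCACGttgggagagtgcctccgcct

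HSPA5, HSP90B1, CRELD2 and XBP1 held an exact ERSE, which HSP90B1 held 2 times, once on each strand. HYOU1, SDF2L1 and HERPUD1 held an exact ERSE-II, 2 copies in HYOU1, where the first overlaps the UPRE core. In all, 7 of the 10 genes held at least 1 of the 3 elements, against 295 of 27305 genes with a RefSeq promoter (1.08%) and 147 of 9216 genes listed in all 3 experiments that have one (1.6%). XBP1 and PDIA4 have 2 RefSeq starts each, and a gene was counted where any of its windows matched. The windows of DNAJB9, MANF and PDIA4 hold no exact copy of any of these elements. Several of these genes are textbook sources of the elements, so the count describes the promoters and is no test.

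Library depth ran from 24179065 to 46971227 reads, and values are normalised read counts (reads divided by a DESeq2 size factor). Of 9 fibroblast markers (COL1A1, COL1A2, COL3A1, VIM, THY1, PDGFRA, PDGFRB, DCN and LUM), all 9 were listed in each experiment. Of 6 epithelial markers, 4 were listed with A485 and with MS-275 and 2 with pyruvate (KRT8 and KRT18 in each), while CDH1 was listed in none. Their summed normalised counts were 1265 to 1608 with A485 against 2718 to 3089 in Control2, 1363 to 2610 with MS-275 against 1942 to 3595 in Control3, and 1588 to 1683 with pyruvate against 1894 to 1906 in Control6. The first 2 sums cover markers that moved both ways. EPCAM was at 208 and 177 with A485 against 64.2 and 47.7 in Control2, whereas KRT8, KRT18 and KRT19 were lower. KRT19 was at 198 and 107 with MS-275 against 56.5 and 28.3 in Control3, whereas EPCAM, KRT8 and KRT18 had lower means. Of 4 endothelial markers, 2, 2 and 1 were listed, without PECAM1 and CDH5, and summed to 0 to 8.91 against 34.2 to 114 with A485, 154 to 203 against 93.1 to 119 with MS-275, and 33.4 to 46.2 against 104 to 164 with pyruvate. Of 4 leukocyte markers only CD14 was listed, with A485 (23.6 to 24.9 against 7.34 to 9.63) and MS-275 (9.68 to 14.0 against 0 to 18.2), and PTPRC was listed in none. The part of these markers in the results was not tested. Replicates differed most in the MS-275 experiment, with a median absolute log2 difference of 0.609 between the treated libraries and 0.579 between the controls. The same measure was 0.292 and 0.331 in the A485 experiment and 0.111 and 0.167 in the pyruvate experiment.

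Per kilobase of canonical transcript, HSPA5 had the highest control level in all 3 experiments and DNAJB9 the lowest. In Control2, HSPA5 stood at 14270 ± 399 normalised reads per kilobase (SD, n = 2), HSP90B1 at 13003 ± 2950 and DNAJB9 at 537 ± 57.7. HSPA5 encodes BiP, the main Hsp70 chaperone of the lumen, and HSP90B1 encodes GRP94, the Hsp90 of the lumen; their libraries overlapped in Control2. In Control6, HSP90B1 was 8th of 10 at 1150 ± 89.5 and DNAJB9 was at 41.3 ± 6.17, while HSPA5 was at 9278 ± 197. These levels were normalised within each experiment and are not tested across experiments.

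**Figure D1:**
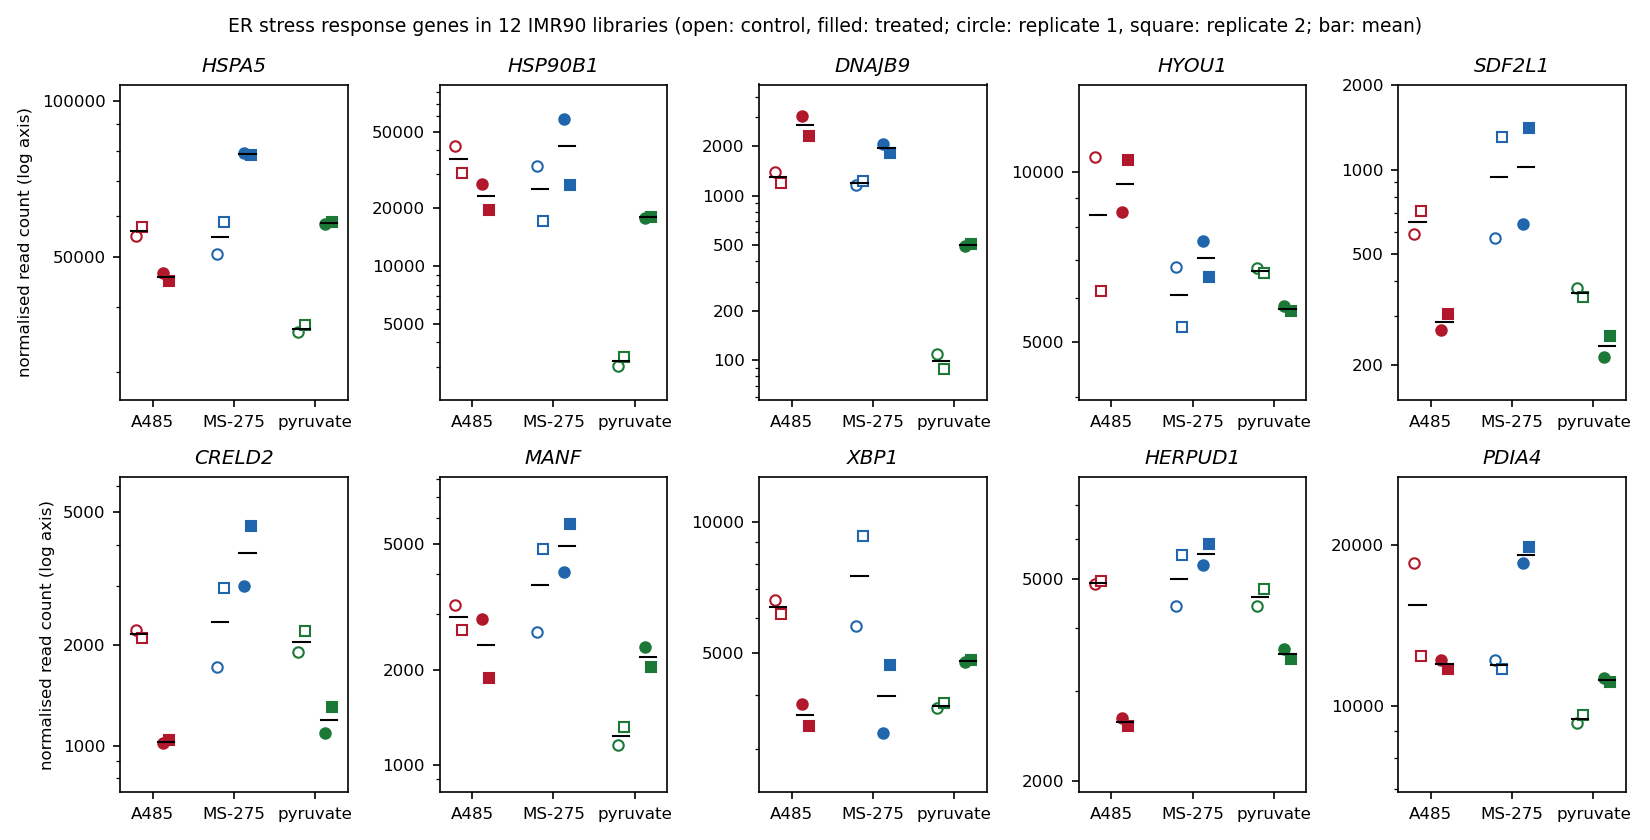
Normalised read counts of the 10 genes (log axis) in the 12 IMR90 libraries, with control libraries open, treated libraries filled, replicate 1 as a circle, replicate 2 as a square and a bar at the mean. In the pyruvate experiment every gene's treated and control libraries are apart, whereas in the MS-275 experiment 5 genes overlap.

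With A485, the 10 genes did not move together: DNAJB9 was higher, and SDF2L1 and CRELD2 were lower, past both thresholds of a call (an adjusted p under 0.05 and a log2 fold change beyond 1 in size). A further 2 genes, XBP1 and HERPUD1, fell past the p threshold but not past the fold. These 3 calls of 10 stand beside 10.4% of 16084 genes called, 3.31% higher and 7.06% lower, and the 5 of 10 at adjusted p under 0.05 stand beside 12.6% of all genes (4.43% higher and 8.21% lower). The median log2 fold change was -0.49 over the 10 genes and 0.01 over all genes. Treated and control libraries did not overlap for 8 of the 10 genes, 1 higher and 7 lower, against a background of 61% of all genes (30.4% higher and 30.7% lower).

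DNAJB9 (ERdj4) is a co-chaperone of BiP that also assists degradation of misfolded proteins. Its normalised read count was 3059 and 2294 with A485 against 1392 and 1196 in the controls. Both treated libraries exceeded both controls, by 1.04 ± 0.21 on the log2 scale (SE; limma adjusted p = 0.0314).

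SDF2L1, a partner of BiP co-chaperones, was at 266 and 304 with A485 against 590 and 712 in the controls. The log2 fold change was -1.19 ± 0.25 (SE; limma adjusted p = 0.0339). CRELD2, a secreted ER-resident protein with disulfide isomerase activity, was at 1017 and 1042 with A485 against 2217 and 2098. It had the smallest p of the 10 genes, with a log2 fold change of -1.07 ± 0.17 (SE; limma adjusted p = 0.0161). For both genes, each treated library lay below each control library.

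XBP1, the transcription factor activated by IRE1, fell from 6609 and 6127 in the controls to 3810 and 3397 (log2 fold change -0.82, limma adjusted p = 0.0291). HERPUD1, a membrane component of ER-associated degradation, fell from 4876 and 4942 to 2654 and 2571 (log2 fold change -0.91, limma adjusted p = 0.0191). Neither reached the fold that a call needs, and in both genes the groups were apart.

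The abundant chaperones did not pass. HSPA5 was at 46584 and 44922 with A485 against 54846 and 57058 in the controls (log2 fold change -0.29, limma adjusted p = 0.391). HSP90B1 was at 26687 and 19510 against 41976 and 30370 (log2 fold change -0.65, limma adjusted p = 0.157). PDIA4, a protein disulfide isomerase, was at 12217 and 11763 against 18544 and 12434. All 3 had every treated library below every control, PDIA4 by a narrow margin. MANF, a secreted ER stress protein, was at 2879 and 1886 against 3192 and 2658, and HYOU1 (GRP170), a nucleotide exchange factor of BiP, at 8513 and 10508 against 10618 and 6155, and in both the groups overlapped.

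The 3 A485 calls depended on the variance model and on how values were normalised. Limma without its intensity trend called 0 of the 10 genes, where 5.22% of all genes were called, against 10.4% in the main test. With 1 library omitted, DNAJB9 ran from 0.83 to 1.24 on the log2 scale, SDF2L1 from -1.32 to -1.05 and CRELD2 from -1.11 to -1.03. These fits leave 1 library in a group and called fewer genes in general. DNAJB9 was no longer called, at 0.73, when the dependence on GC content and transcript length was removed, and SDF2L1 and CRELD2 were not called with equal library totals, at -0.79 and -0.67. Count tests on recovered reads, run for A485 alone, called the same 3 genes with both edgeR (adjusted p 0.0153 to 0.0394) and DESeq2. With library totals set equal, the median over all genes moved to 0.40, and HSPA5, MANF and PDIA4 changed sign to 0.10, 0.07 and 0.05, as HSPA5 (0.58) and PDIA4 (0.11) did under quantile normalisation. Summed over the 10 genes, normalised counts were 98196 to 107686 with A485 and 123751 to 144860 in Control2, but as a share of listed reads the ranges overlapped, 0.272% to 0.324% against 0.258% to 0.335%.

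Of 9 fibroblast markers, 8 were called lower with A485, where 7.06% of all genes were. The summed normalised count of the 9 was 429886 to 503523 against 1366300 to 1525320 in Control2. With pyruvate, 3 (DCN, LUM and PDGFRA) were called higher and 1 (THY1) lower, where 31% and 23.1% of all genes were. Their sum was 780999 to 784190 with pyruvate against 882616 to 898755 in Control6. None was called with MS-275, where the sums overlapped, at 645286 to 1144660 against 780325 to 1273050 in Control3. In bulk samples, fewer cells of a type and less RNA per cell cannot be told apart. The part of these shifts in the results was not tested.

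With MS-275, none of the 10 genes was called by limma, and none had an unadjusted p under 0.05. The background was 0% of 15883 genes called, with 1730 (10.9%) at an unadjusted p under 0.05. Within replicate numbers, 9 of the 10 genes were higher with MS-275 in both pairs and XBP1 was lower in both, where 38.6% of all genes were higher and 40.4% lower in both. The labels give no meaning to a shared number, so these pairs are a description. The median log2 fold change was 0.49 over the 10 genes and -0.01 over all genes.

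The BiP gene HSPA5 was at 79361 and 78462 with MS-275 against 50736 and 58276 in the controls, higher by 0.65 and 0.43 on the log2 scale within numbers. Its fitted log2 fold change was 0.54, with a 95% interval from -0.20 to 1.28. PDIA4 was at 18516 and 19899 against 12222 and 11722, and DNAJB9 at 2063 and 1830 against 1168 and 1229. In these 3 genes the treated libraries lay above the controls. CRELD2 did so as well, by a small margin, at 3007 and 4556 against 1722 and 2961.

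XBP1 was at 3270 and 4696 with MS-275 against 5770 and 9279 in the controls. It was the 1 gene of the 10 whose treated libraries lay below the controls, by 0.82 and 0.98 within numbers (log2 fold change -0.90, limma adjusted p = 0.536).

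In the other 5 genes the groups overlapped. HSP90B1 was at 58307 and 26293 with MS-275 against 33179 and 17143, so that replicate 1 was the higher in both groups. MANF was at 4061 and 5766 against 2633 and 4788, with replicate 2 the higher. SDF2L1 was at 641 and 1411 against 570 and 1309, and its fitted log2 fold change of 0.14 had an interval from -1.45 to 1.73; it turned to -0.003 with equal library totals. Within numbers, HYOU1 was higher by 0.16 and 0.29 and HERPUD1 by 0.27 and 0.07. Groups that did not overlap numbered 5 of 10, 4 higher and 1 lower, against 38.9% of all genes.

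**Figure D2:**
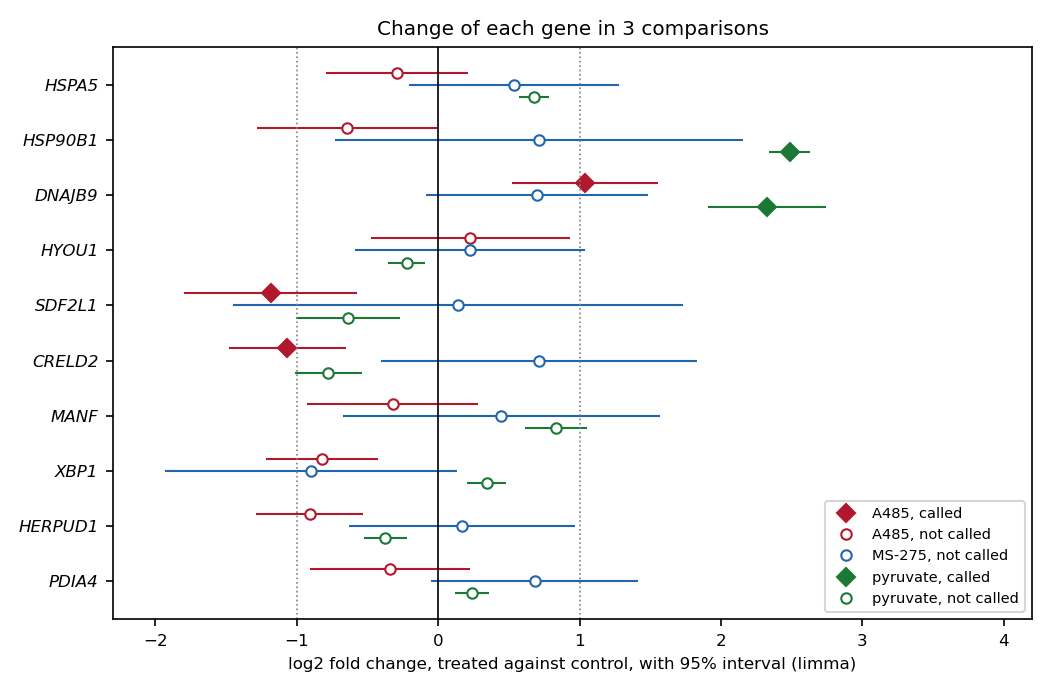
Log2 fold change (horizontal axis, treated against control) of each gene in the 3 comparisons, with the 95% limma interval as a line and filled diamonds for called genes. DNAJB9 is the only gene called in more than 1 comparison, and the MS-275 intervals are the widest for all 10 genes.

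With pyruvate, all 10 genes passed at an adjusted p under 0.05, 6 higher and 4 lower, but so did 80.9% of 12013 genes (40.6% higher and 40.2% lower). HSP90B1 and DNAJB9 were called higher and no gene was called lower, against a background of 54.1% called, 31% higher and 23.1% lower. Quantile normalisation also called HSPA5 higher, at 1.16, and SDF2L1 lower, at -1.19, and equal library totals called MANF higher, at 1.14. The groups did not overlap for any of the 10 genes, against 90.5% of all genes. The median log2 fold change was 0.29 over the 10 genes and -0.01 over all.

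HSP90B1 had the largest difference of the 10 genes, at 17695 and 18075 with pyruvate against 3022 and 3374 in the controls (log2 fold change 2.49 ± 0.07, SE; limma adjusted p = 1.33e-10). DNAJB9 was at 493 and 507 against 110 and 89.0, a log2 fold change of 2.33 ± 0.19 (SE; limma adjusted p = 4.06e-07). Among the other genes that rose, HSPA5 was at 57780 and 58423 against 35833 and 36925 (log2 fold change 0.68). MANF was at 2358 and 2036 against 1153 and 1314 (log2 fold change 0.83). XBP1 and PDIA4 rose by 0.34 and 0.24 on the log2 scale.

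CRELD2 fell from 1904 and 2200 in the controls to 1091 and 1303 with pyruvate (log2 fold change -0.78), and SDF2L1 from 377 and 350 to 214 and 254 (log2 fold change -0.64). HERPUD1 and HYOU1 had log2 fold changes of -0.37 and -0.22, the latter turning to 0.09 and 0.13 with equal library totals and quantile normalisation. Summed over the 10 genes, normalised counts were 105106 to 105661 with pyruvate and 66639 to 69147 in Control6, which is 0.442% to 0.443% against 0.225% to 0.235% of listed reads.

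Fold changes in the pyruvate experiment followed the GC content of transcripts across genes. Spearman's rho between log2 fold change and GC content was -0.717 over 11888 genes, against -0.113 for A485 and -0.016 for MS-275, as a description over genes that share the same 4 libraries. The 10 genes run from 37.3% GC in DNAJB9 and 41.8% in HSP90B1, the 2 genes called, to 60.7% in CRELD2 and 65.1% in SDF2L1, which were lowest. Genes within 1 point of GC had a median log2 fold change of 1.75 around DNAJB9 and 1.63 around HSP90B1. The medians were -1.09 around CRELD2 and -1.19 around SDF2L1, and in 9 of the 10 genes the value lay above the median of genes of like GC. HERPUD1 was the exception, at -0.37 against a median of 0.12.

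When the dependence of each library on GC content and transcript length was removed, HYOU1, SDF2L1 and CRELD2 changed sign and became higher with pyruvate, at 0.55, 0.98 and 0.60. The number called then depended on how the libraries were centred afterwards, which was tried in 3 ways: 4 of 10 with library means kept, 6 with medians kept and 2 with the median gene ratio set to 0, all higher. Beside these, 30%, 30.9% and 28.7% of all genes were called, and 67.9%, 72.4% and 53.8% of those calls were higher. The median log2 fold change over all genes was 0.20, 0.27 and 0.01 in the same order. The last 2 ways were added after the results of the first were seen. Whether GC content reflects library preparation or the cells was not tested.

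**Figure D3:**
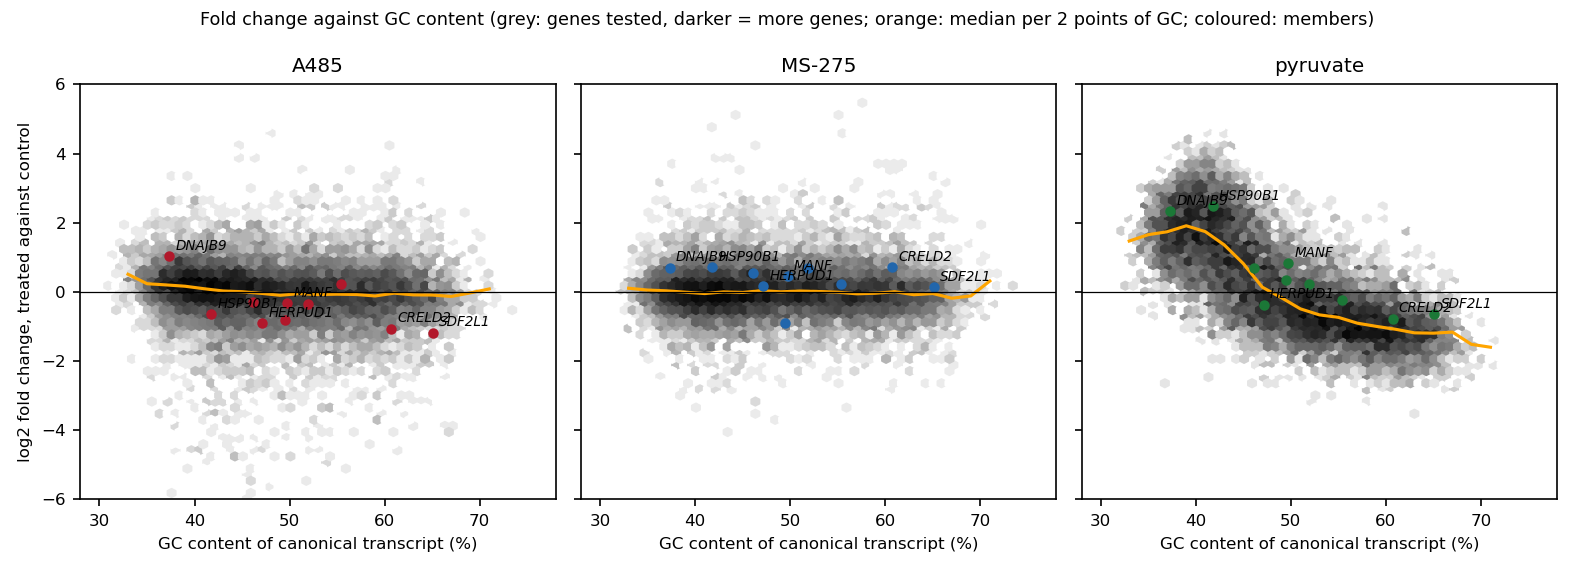
Log2 fold change (vertical axis) against the GC content of the canonical transcript (horizontal axis, percent) in the 3 comparisons, with grey hexagons for all tested genes, an orange line for the median per 2 points of GC and coloured points for the 10 genes. The orange line slopes steeply down in the pyruvate experiment, where DNAJB9 and HSP90B1 lie at the upper left and SDF2L1 and CRELD2 at the lower right.

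The same genes were then compared between treatments, as the difference of 2 effects in limma. The effects of A485 and MS-275 differed for 0 of the 10 genes, with 3.81% of 15130 genes past the threshold. CRELD2 came nearest, at -1.07 with A485 and 0.71 with MS-275 (limma adjusted p = 0.1003). The count of differing genes was above 0 with the length and GC trend removed, where the share of all genes is not given.

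Pyruvate and A485 differed for 6 of the 10 genes, beside 65.4% of 11993 genes. For HSP90B1 the effects were 2.49 and -0.65, a difference of 3.13 ± 0.28 (SE; limma adjusted p = 3.61e-05). XBP1 had 0.34 and -0.82 (adjusted p = 0.000278), HSPA5 0.68 and -0.29 (adjusted p = 0.00238), and MANF 0.83 and -0.32 (adjusted p = 0.00813). DNAJB9, called higher in both, was higher by 1.29 more with pyruvate (adjusted p = 0.00366), and HERPUD1 differed by 0.54. All 6 differences were higher with pyruvate. The DNAJB9 difference did not pass with the GC and length trend removed, at 0.31, 0.39 and 0.11 under the 3 centrings (limma adjusted p = 0.283, 0.183 and 0.719), nor with quantile normalisation, at 0.66. The HSPA5 and HERPUD1 differences fell below the threshold with the trend removed only when the median gene ratio was set to 0, both at 0.34, and HERPUD1 also did not pass without replicate 1 of pyruvate or of Control6. Those of HSP90B1, MANF and XBP1 passed under all 3 centrings.

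Pyruvate and MS-275 differed for 3 of the 10 genes, beside 41.1% of 12005 genes. DNAJB9 was higher by 1.63 with pyruvate (limma adjusted p = 0.00599) and XBP1 by 1.24 (adjusted p = 0.0407), while for CRELD2 the difference was -1.49 (adjusted p = 0.0374). Leaving out any 1 of the 4 libraries of the pyruvate experiment left only DNAJB9 of these 3 past the threshold. With the GC and length trend removed, however, the DNAJB9 difference was 0.31, 0.40 and 0.11 under the 3 centrings (limma adjusted p = 0.450, 0.286 and 0.817) and the CRELD2 difference -0.12, -0.03 and -0.32 (adjusted p = 0.673, 0.911 and 0.254). CRELD2 did not pass with equal library totals or quantile normalisation either, at -1.04 and -1.38. XBP1 passed under all 3 centrings but not without replicate 1 of MS-275, without replicate 2 of Control3 or without the variance trend.

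Other genes of the pathway were counted in lists by role. With A485, genes downstream of PERK were called lower in 4 of 7 cases and higher in 0, where 7.06% of all genes were called lower. CHAC1, which degrades glutathione, was at 298 and 316 against 2198 and 2408 (log2 fold change -2.90, limma adjusted p = 0.00179). ATF4, the transcription factor of this arm, had a log2 fold change of -1.38 and TRIB3, a pseudokinase that it induces, one of -1.71. ERO1B, an oxidase that drives disulfide formation, was called higher (log2 fold change 2.19), the 1 call among 19 folding genes. ATF4 was not called with equal library totals (-0.99) or quantile normalisation (-0.998), while CHAC1 and TRIB3 were. Over all pathway lists 6 of 83 genes (7.23%) were called, near the 10.4% of all genes, and without either A485 library 1 or 2 were.

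None of the 5 sensors and proteases, 15 degradation genes, 18 genes of entry into the ER or 11 genes of the COPII coat was called with A485. At an adjusted p under 0.05 alone, 3 COPII genes and 2 of entry were lower, where 8.21% of all genes were. By the same rule 1 degradation gene was higher, where 4.43% of all genes were, and 0 of the sensors and proteases passed. The lowest p belonged to ATF6 (log2 fold change 0.63) among the sensors and proteases, SEC61B (-0.75) for entry into the ER and SEC13 (-0.94) in the COPII coat. Among 8 cytosolic heat shock genes, HSPB1 was called lower (log2 fold change -1.35), but not with equal library totals (-0.96) or quantile normalisation (-0.92).

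With MS-275 no gene of any list was called. ERO1A, an oxidase of the same family as ERO1B, was at 11180 and 7276 against 3221 and 2631 (log2 fold change 1.63, limma adjusted p = 0.260), and its groups were apart. The lowest p of the other lists belonged to EIF2AK3 (0.53), TRIB3 (-1.11), EDEM1 (0.93), SPCS3 (1.44), SEC24C (0.50) and HSP90AA1 (-0.78), as log2 fold changes.

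With pyruvate, 44 of 83 pathway list genes were called (53%), 31 higher and 13 lower, a share near the background of 54.1%, so the counts are not a result about the pathway. With the GC and length trend removed, 19, 18 and 20 were called under the 3 centrings. The shares of all genes called were then 30%, 30.9% and 28.7%. Of the 19 called genes that the naming rule picked from these lists, 8, 10 and 7 were still called. In the main test 3 of 5 sensors and proteases were called higher and 0 lower, though 1 was lower at an adjusted p under 0.05. Their summed normalised count was 9208 to 9711 with pyruvate against 10248 to 11085 in Control6. ATF6 was at 1987 and 1658 against 354 and 251 (log2 fold change 2.60), MBTPS2, a protease that releases it, at 648 and 659 against 149 and 153, and EIF2AK3 at 476 and 444 against 108 and 127. DDIT3 (CHOP), a factor of the PERK arm tied to cell death, was called higher (log2 fold change 1.56), 1 of 7 in its list. With the trend removed and library means kept, ATF6, MBTPS2 and EIF2AK3 were at 0.94, 0.54 and 0.99 and no longer called. DDIT3, at 2.41, still was. With medians kept, ATF6 (1.01) and EIF2AK3 (1.06) were called again. DDIT3 was called under all 3 centrings but not with quantile normalisation, at 0.89.

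Pyruvate calls in the remaining lists went both ways. Of 19 folding genes, 6 were called higher and 4 lower, with CANX (calnexin) at 2.07, UGGT1, a sensor of glycoprotein folding, at 2.28 and P4HB, a disulfide isomerase, at -1.32 on the log2 scale. Of 15 degradation genes, 5 were called higher and 3 lower (EDEM1 2.13 and SEL1L 1.85 among those higher). For entry into the ER, 6 of 18 were higher and 2 lower (SSR3 2.15, SEC61A1 -1.005, SSR4 -1.39), and for the COPII coat 7 of 11 were higher and 1 lower (SEC23A 2.64, SEC24D 2.38, SEC31A 1.38). Cytosolic heat shock genes were called higher in 3 of 8 cases and lower in 3, led by HSP90AA1 at 3.71, DNAJA1 at 2.57 and HSPH1 at 2.59. With the trend removed and library means kept, CANX (0.45), P4HB (-0.19), SEL1L (0.05), SSR3 (0.59), SEC61A1 (-0.19), SSR4 (-0.02), SEC31A (0.67) and HSPH1 (0.92) were no longer called. UGGT1 (1.31), EDEM1 (1.28), SEC24D (1.82), HSP90AA1 (2.48) and DNAJA1 (1.37) were called under all 3 centrings, and SEC23A (1.15) under 2 of them.

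**Figure D4:**
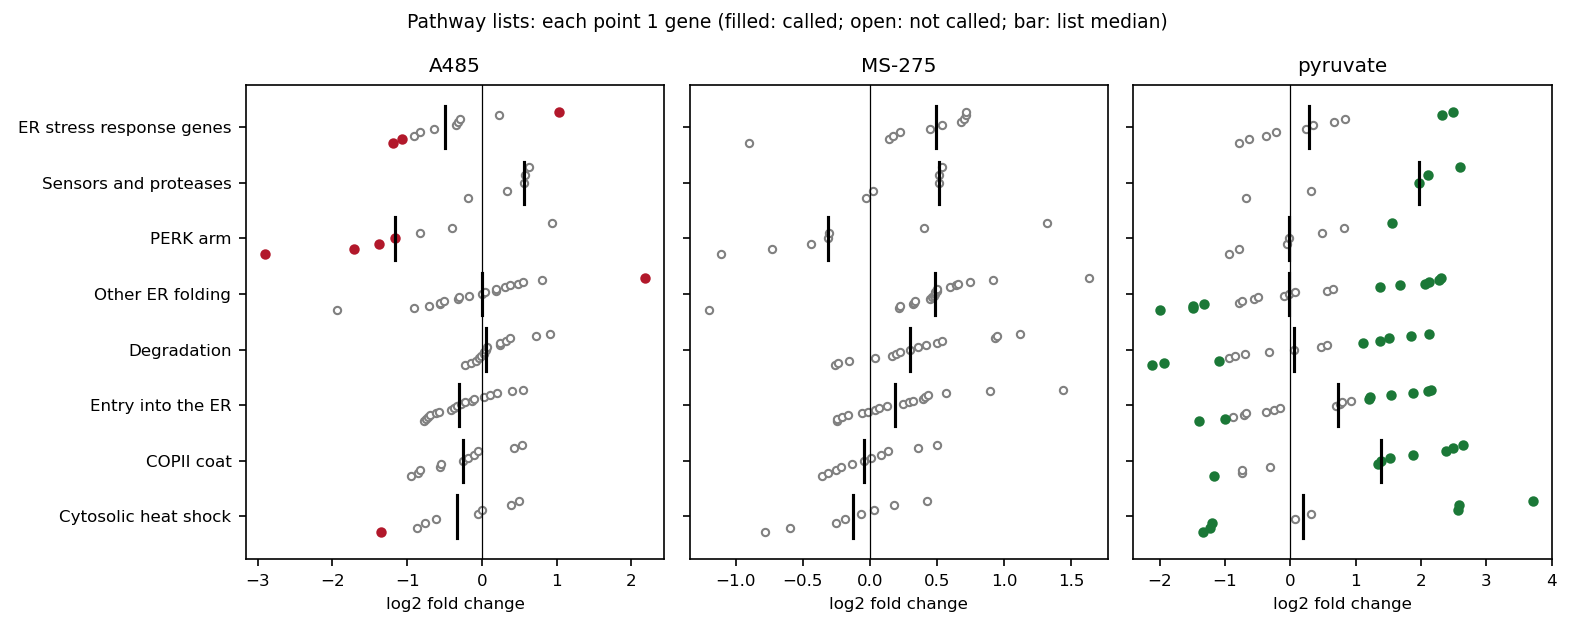
Log2 fold change (horizontal axis, treated against control) of each gene in the 8 lists, with filled points for called genes, open points for genes not called and a bar at each list's median. With A485 the median of the PERK arm lies to the left at -1.17, though ATF3 lies to the right at 0.93. No point is filled with MS-275.

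Over the 12 libraries, centred within each experiment, 29 of the 45 pairs among the 10 genes had a positive Pearson correlation, with a median r of 0.17. SDF2L1, CRELD2 and HERPUD1 formed the 3 closest pairs, at r from 0.86 to 0.90, and HSPA5 and HSP90B1 followed at 0.81. DNAJB9 and HERPUD1 were the most opposed at -0.62. Libraries of one treatment share their contrast, so these values describe the 12 libraries only. Among 9759 other genes, those with the highest mean r to the 10 were DCBLD1 (0.49), FANCC (0.49), BTG1 (0.48), P4HA3 (0.47) and TPM1 (0.47). Each had a negative r with at least 1 of the 10, the lowest running from -0.33 for P4HA3 to -0.12 for DCBLD1.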

How the data were processed

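RNA sequencing libraries of IMR90 were grouped by their titles, and each treatment was compared with the control numbered beside it; mouse muscle libraries were not used here. Per the labels, the authors trimmed reads with Trim Galore (0.6.10), aligned them with HISAT2 (2.2.1) to hg38, counted them with featureCounts (2.0.6) and normalised them with DESeq2 (1.34.0). The deposited signal is the read count divided by 1 size factor per library, normalised per experiment. The annotation and strand setting are not given in the sources used here, so overlapping genes may share reads.

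In each comparison of 4 libraries, genes averaging 10 or more were tested on log2(value + 1) with limma (3.58.1, R 4.3.3), two-sided, with an eBayes trend and without covariates, and p was adjusted over all genes by Benjamini-Hochberg. Fold changes on this scale understate changes of low genes. A call needs an adjusted p under 0.05 and an absolute log2 fold change above 1, and a difference of effects an adjusted p under 0.05. edgeR (4.0.16) and DESeq2 (1.42.0) were run on reads recovered from the A485 libraries, where 100% of values were within 0.01 of a whole multiple of 1 read. Replicates differed beyond sampling noise in every group (chi-square per gene 4.54 to 458). Scripts were tested on simulated data.

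Transcript lengths and GC content came from GENCODE canonical transcripts. The removal of a length and GC trend used splines of 4 degrees of freedom. The planned version kept each library's mean. A second version, which kept medians, was written after its results were seen, and another, which set the median gene ratio to 0, after those of both; all 3 are reported. All 10 genes are named, as are, per list, up to 3 called genes with the smallest p, or else the gene with the smallest p. A gene that this rule would name is not reported here. Genes most like the 10 had a mean of at least 100. Members and lists were chosen with earlier results of these data known.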

Additional observations from a re-analysis of the deposited data

How the results depend on the processing

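The limits are few libraries, wide replicate spread with MS-275, and the GC trend with pyruvate. With 2 libraries a group, the lone library left after an omission is assumed to vary like the others. Count tests were left out for pyruvate and MS-275, whose values were whole multiples of 1 read too.

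For A485, 3 of the 10 genes were called; this became 1 with equal library totals, 0 without the variance trend, 2 (both lower) with the length and GC trend removed in each of 3 ways, 2 with the spread shared by 12 libraries, and 5 with a fold minimum of 0.58 or none. Omitting 1 library gave 0 to 1. All genes called, 1667, became 2578 with equal totals (65.1% of calls higher, against 31.9%; 42.5% with quantile normalisation), 840 without the variance trend and 229 to 1284 with 1 library omitted. edgeR called 1664 and DESeq2 2325. In the main test with no fold minimum, 12.6% of all genes passed. Pathway list genes called, 6, became 14 with a fold minimum of 0.58 or none, and 1 to 6 with 1 library omitted. With equal totals, HSPA5, MANF and PDIA4 turned to 0.10, 0.0710 and 0.0523 on the log2 scale; with quantile normalisation, HSPA5 and PDIA4 turned to 0.58 and 0.11. HYOU1 ran from -0.17 to 0.62 over omitted libraries, and was negative only without Control2 replicate 2.

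For MS-275, 0 of the 10 genes were called under every alternative. All genes called, 0, became 487 with the spread shared by 12 libraries and 33 to 444 with 1 library omitted, and pathway list genes 2 with the shared spread. SDF2L1 turned to -0.00311 with equal totals and ran from -0.46 to 0.74 over omitted libraries, and was negative without MS-275 replicate 2 or Control3 replicate 1.

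No label says that replicate numbers pair the libraries. The correlation of same-numbered deviations was 0.316 for A485, 0.728 for MS-275 and 0.002 for pyruvate. With the replicate block, calls over all genes were 2486 for A485, 2183 for MS-275 and 6513 for pyruvate; 6 pathway list genes and 0 of the 10 genes were called with MS-275, though 6 of the 10 were higher and 1 lower at an adjusted p under 0.05, where 39.3% of all genes passed. Under the block the A485 and MS-275 effects differed for 7 genes, not 0, and the pyruvate and MS-275 effects for 8, not 3. Outside the main test, the share of all genes whose effects differed is not given, here or below. Such counts are therefore no result about the 10 genes. The block with the length and GC trend removed gave 1961 calls for MS-275, 6 of them in pathway lists, 6 and 7 for those differences, and, for pyruvate, 4 of the 10 genes, 3619 genes and 19 pathway list genes.

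For pyruvate, 2 of the 10 genes were called; this became 4 with quantile normalisation (3 higher, and SDF2L1 lower at -1.19), 6 with a fold minimum of 0.58 and 10 with none, and was 2 with any 1 library omitted. Pathway list genes called, 44, became 73 of 83 with no fold minimum, where 80.9% of all genes passed. The share of all genes called at a fold minimum of 0.58 is not given. Equal totals moved the share of calls that were higher from 57.3% to 71.7%. HYOU1 turned to 0.0872 with equal totals and 0.13 with quantile normalisation.

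The length and GC trend was removed in 3 ways, of which the first was planned and the last 2 were chosen after seeing the data. With library means kept, the median over all genes was 0.20, and 4 of the 10 genes, 3568 genes (67.9% higher) and 19 pathway list genes were called, with HYOU1 at 0.55, SDF2L1 at 0.98 and CRELD2 at 0.60, also under the block. With medians kept, the median was 0.27, the counts were 6, 3676 and 18, and the 3 genes stood at 0.62, 1.05 and 0.67, with SSR4 at 0.0466. With the median gene ratio set to 0, the median was 0.01, the counts were 2, 3414 and 20, and the 3 genes stood at 0.35, 0.78 and 0.40, with SEL1L at -0.15. The called genes differ too: DNAJB9 was 0.84 and not called under the last. The A485 and MS-275 effects differed for 2 genes in each of the 3 ways.

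Leaving out 1 library, the pyruvate and MS-275 effects differed for 1 to 3 genes, the pyruvate and A485 effects for 5 to 7, and the A485 and MS-275 effects for 0.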
